A study of Bos taurus with 32 samples.

Results

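Levels were compared between calves of different embryo origin, and between the organs of each calf, for the bovine genes ENSBTAG00000037799 and ENSBTAG00000052247, which are 2 of the 27607 Ensembl gene IDs in the count table. They were picked because earlier results of these libraries showed lower levels in calves from in vitro embryos in several organs, so the difference by embryo origin is described here and not tested. The sources used here pair neither ID with a symbol, a position or a sequence, and both genes are therefore described by ID, level and pattern only.

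RNA came from 4 organs of 8 male Holstein calves, the hypothalamus, the pituitary, the testicle and the adrenal. IVP calves (3208, 3209, 5833 and 5841) came from embryos produced in vitro. MOET calves (3213, 3217, 3218 and 5932), the controls, came from in vivo embryos of donor cows that had been superstimulated and then inseminated. All embryos were transferred to synchronised recipient cows, so the calves of both origins share transfer and a recipient pregnancy, and they were kept in similar conditions after birth. Calves were 98 to 104 days old, except MOET calf 3213 at 144 days. Each calf gave 1 library per organ, which makes 32 libraries in 8 groups of 4 animals, with totals of 17357283 to 23380330 counts. The tissue labels could not be checked against named marker genes, because the IDs carry no symbols.

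In vitro production moves oocyte maturation, fertilisation and the first embryonic divisions from the reproductive tract into culture, while in multiple ovulation and embryo transfer (MOET) these steps take place in the donor cow. The organs sampled are those of the axes that run from the brain to the gonad and the adrenal gland. Neurons of the hypothalamus release hormones that act on the pituitary, the pituitary releases gonadotrophins and corticotrophin, and the testicle and adrenal cortex answer with steroid hormones. A transcript that is present in all these organs can be compared within 1 animal, which separates an animal that is high or low throughout from organs that vary on their own.

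Both genes were read in every library and passed the low-count filter in all 4 tissues. Levels are given as CPM, the gene's counts relative to the TMM-scaled total of its library, with TMM factors set within a tissue. As these are bulk organs, fewer cells that carry a transcript and less transcript per cell cannot be told apart. ENSBTAG00000037799 was a gene of low level in every organ, with 37 to 355 counts per library. ENSBTAG00000052247 was abundant in the hypothalamus, with 12631 to 20386 counts per library, and far lower elsewhere, down to 67 counts in a testicle.

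ENSBTAG00000037799 was lower in IVP calves in the pituitary, testicle and adrenal, where the groups did not overlap, and its groups overlapped in the hypothalamus. In the adrenal the IVP calves 3208, 3209, 5833 and 5841 had 5.16, 6.56, 6.29 and 7.26 CPM. The MOET calves 3213, 3217, 3218 and 5932 had 17.6, 18.6, 17.0 and 16.4 CPM. The lowest MOET adrenal, at 16.4 CPM, was thus far above the highest IVP adrenal, at 7.26 CPM. The group means were 6.32 ± 0.873 and 17.4 ± 0.937 CPM (SD, n = 4), a ratio of IVP over MOET of 0.363 and a difference of -1.45 on the log2 scale (SE 0.11). Genes enriched in the adrenal (8-fold or more above each other tissue) had a mean of 1.96 log2 CPM in adrenal IVP 5833, against 3.37 to 3.70 log2 CPM in the other 7 adrenals. With calf 5833 included, 75 of these 114 genes had a lower mean in IVP calves. Over all 15437 genes tested in the adrenal, 50.7% had a lower mean in IVP calves. Without calf 5833 the difference of ENSBTAG00000037799 was -1.46 (SE 0.15).

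In the pituitary the same IVP calves, in the same order, had 1.66, 1.86, 1.87 and 2.35 CPM, and the MOET calves 4.10, 4.52, 3.73 and 4.12 CPM. The gap between the groups, from 2.35 to 3.73 CPM, was wider than the range within either of them. The means were 1.94 ± 0.294 CPM in IVP and 4.12 ± 0.320 CPM in MOET pituitaries (SD, n = 4), a ratio of 0.470 and a log2 difference of -1.06 (SE 0.11). In the testicle the IVP calves had 3.45, 2.74, 2.30 and 3.04 CPM and the MOET calves 4.93, 3.56, 6.28 and 5.11 CPM. Here the groups were separated only narrowly, since MOET calf 3217 lay just above IVP calf 3208. The testicular means were 2.88 ± 0.484 and 4.97 ± 1.11 CPM (SD, n = 4), a ratio of 0.580 and a log2 difference of -0.75 (SE 0.20).

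In the hypothalamus the IVP calves had 2.58, 3.71, 4.203 and 2.27 CPM of ENSBTAG00000037799 and the MOET calves 3.62, 3.59, 3.28 and 4.29 CPM. IVP calves 3208 and 5841 lay below all MOET calves, while 3209 and 5833 lay inside their range. The means of 3.19 ± 0.915 and 3.69 ± 0.427 CPM (SD, n = 4) differed by -0.24 on the log2 scale (SE 0.22). In size this was less than the log2 SD of the IVP calves, 0.41, and more than that of the MOET calves, 0.16. The difference was -0.10 without IVP calf 5841, -0.16 without 3208, -0.17 without MOET calf 5932 and -0.38 without IVP calf 5833. Genes enriched in the pituitary (8-fold or more above each other tissue) took 0.472% of the counts in hypothalamus 5833, 0.179% in hypothalamus 3209, and 0.0779% and 0.0693% in hypothalami 3208 and 5841. They took 0.0443% to 0.184% in the MOET hypothalami, and their part in the values of ENSBTAG00000037799 was not tested.

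ENSBTAG00000052247 was lower in IVP calves in the hypothalamus and testicle, without overlap, and not in the adrenal. In the hypothalamus IVP calves 3208, 3209, 5833 and 5841 had 713.6, 675.7, 652.1 and 573.6 CPM, and MOET calves 3213, 3217, 3218 and 5932 had 912.2, 988.4, 994.4 and 787.6 CPM. MOET calf 5932 was the lowest of its group and still above every IVP calf. The means were 653.8 ± 59.1 and 920.7 ± 96.3 CPM (SD, n = 4), a ratio of 0.710 and a log2 difference of -0.49 (SE 0.10). In the testicle, where the gene is scarce, the IVP calves had 5.17, 3.75, 5.57 and 4.25 CPM and the MOET calves 9.54, 12.7, 7.74 and 8.60 CPM. The lowest MOET testicle, at 7.74 CPM, was above the highest IVP testicle, at 5.57 CPM. The testicular means were 4.69 ± 0.833 and 9.63 ± 2.14 CPM (SD, n = 4), a ratio of 0.487 and a log2 difference of -1.02 (SE 0.20).

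In the pituitary the IVP calves had 26.9, 28.7, 21.4 and 29.3 CPM of ENSBTAG00000052247 and the MOET calves 31.1, 28.1, 28.3 and 37.2 CPM. The groups overlapped, with IVP calf 5833 alone at the bottom and MOET calf 5932 alone at the top. The log2 difference of -0.23 (SE 0.14, ratio 0.852) was -0.13 without calf 5833 and -0.14 without calf 5932. In the adrenal the IVP calves had 22.1, 26.5, 25.2 and 25.9 CPM and the MOET calves 25.4, 23.8, 25.1 and 26.1 CPM. The highest and the lowest adrenals of all 8 calves were both IVP. The adrenal means of 24.9 ± 1.94 and 25.1 ± 0.933 CPM (SD, n = 4) gave a ratio of 0.993 and a log2 difference of -0.01 (SE 0.06), which was 0.04 without IVP calf 3208 and 0.01 without MOET calf 5932. The adrenal therefore goes against the description of this gene as lower in IVP calves across organs.

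**Figure D1:**
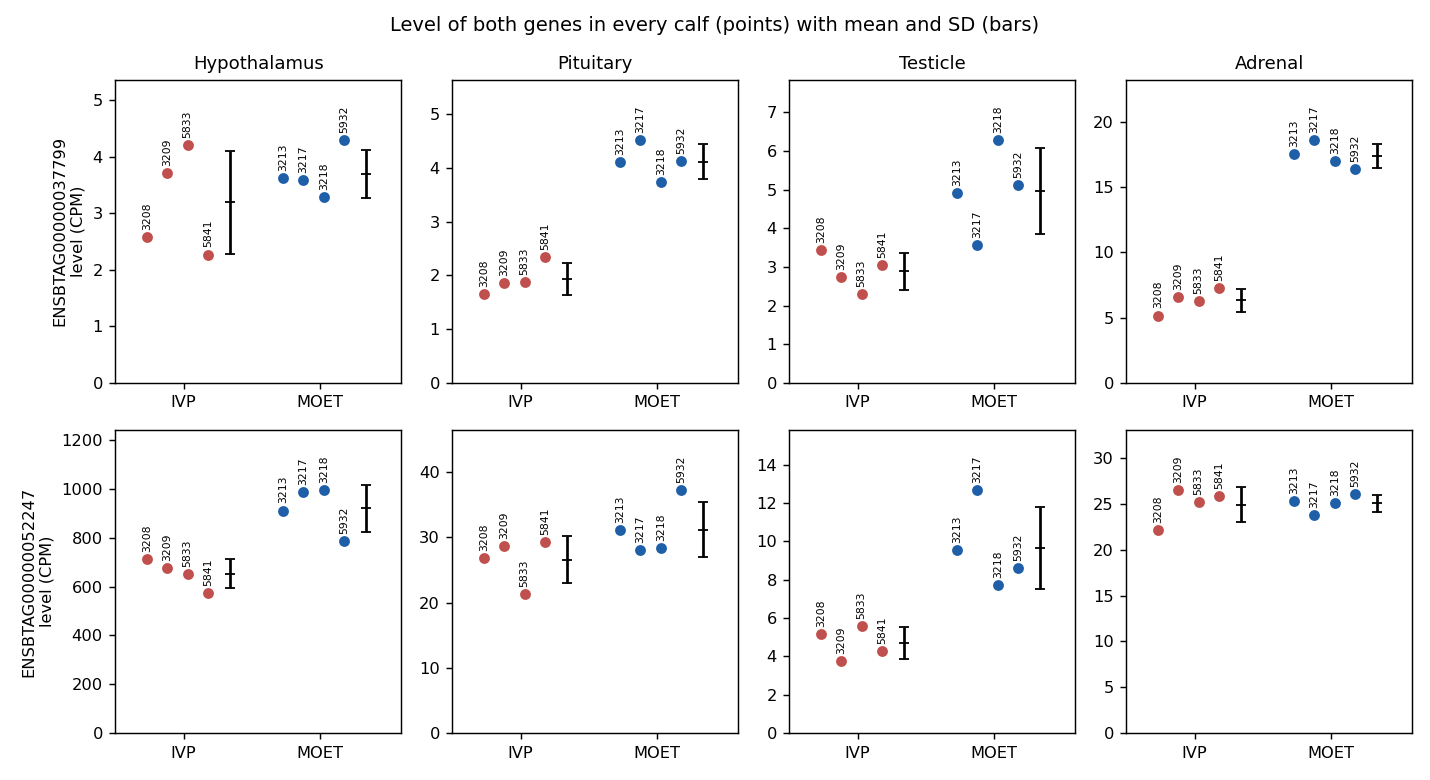
Level of ENSBTAG00000037799 (upper row) and ENSBTAG00000052247 (lower row) in CPM, with a separate linear axis from 0 for each organ. Points are single calves with their numbers, red for IVP and blue for MOET, and bars are the group mean and SD of 4 calves; the groups are apart in 3 organs for the first gene and in 2 for the second.

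The organs in which the 2 genes differed were not the same. ENSBTAG00000037799 had its lowest IVP to MOET ratio in the adrenal, 0.363, where that of ENSBTAG00000052247 was 0.993. ENSBTAG00000052247 had its lowest ratio in the testicle. Whether the difference by origin varied between organs was not tested, because the same contrast chose the genes. With 1 calf left out in turn the log2 difference of ENSBTAG00000037799 stayed between -1.52 and -1.36 in the adrenal, between -1.16 and -0.995 in the pituitary and between -0.90 and -0.63 in the testicle. For ENSBTAG00000052247 it stayed between -0.57 and -0.43 in the hypothalamus and between -1.11 and -0.88 in the testicle.

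**Figure D2:**
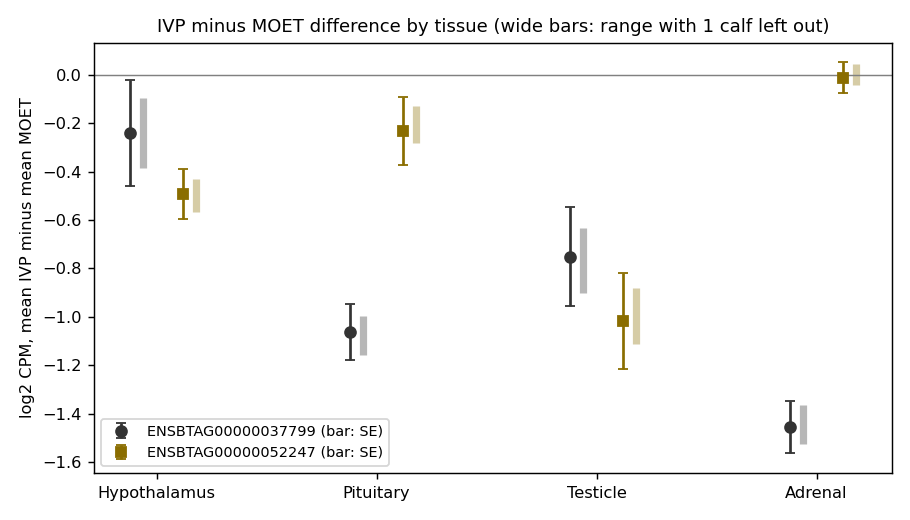
Mean log2 CPM of IVP minus MOET calves by organ for both genes, with 4 calves per origin. Thin bars are SE, wide pale bars span the values with 1 calf left out; the value of ENSBTAG00000052247 in the adrenal, -0.01, is the one that crosses 0 when a calf is left out.

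The count of organs without overlap was 3 of 4 for ENSBTAG00000037799 and 2 of 4 for ENSBTAG00000052247. As background, all 4 IVP calves lay below all 4 MOET calves for 5.06% of the genes tested in hypothalami, 10.9% in pituitaries, 4.29% in testicles and 19.0% in adrenals. Among the 14025 genes that passed the filter in all 4 tissues, 3.19% were apart in this direction in 2 or more organs and 0.221%, 31 genes, in 3 or more. None was in all 4, and no test underlies this count. The mean was lower in IVP calves in all 4 organs for 4.21% of these genes, both described here among them. ENSBTAG00000052247 is counted there only by an adrenal log2 difference of -0.01 (SE 0.06), which was above 0 without IVP calf 3208 or without MOET calf 5932. As the genes were chosen on this contrast, these shares place them and do not support them. In the same order of organs the median gene differed by 0.02, 0.01, 0.02 and -0.01 on the log2 scale, so the differences above are relative to a median near 0.

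Scaling bears on ENSBTAG00000052247 in the adrenal and on ENSBTAG00000037799 in the hypothalamus, where the log2 difference was -0.09 (SE 0.25) with plain library totals in place of TMM factors. With totals the adrenal groups of ENSBTAG00000052247 did not overlap (log2 difference -0.20, SE 0.06), but the median of all adrenal genes moved to -0.19 as well. For hypothalamus, pituitary and testicle it moved to 0.18, 0.07 and -0.10. With totals 5151 adrenal genes had all IVP calves below all MOET calves and 1348 had them above, against 2933 and 3132 with TMM. The 2 counts were 386 and 1505 against 813 and 792 for hypothalami, 639 and 1412 against 1729 and 1822 for pituitaries, and 1178 and 125 against 701 and 491 for testicles. With TMM factors taken over all 32 libraries, the testicular counts were 802 and 360. ENSBTAG00000037799 was apart in the same 3 organs under every scaling tried.

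Animal numbers fall into 2 ranges, and the labels do not say what they stand for. Among the 5 calves numbered 3208 to 3218 the log2 difference of ENSBTAG00000037799 was -0.17, -1.18, -0.62 and -1.59 for hypothalamus, pituitary, testicle and adrenal. Among the 3 calves numbered 5833 to 5932 it was -0.46, -0.95, -0.93 and -1.27, with a single MOET calf. For ENSBTAG00000052247 the values were -0.47, -0.07, -1.13 and -0.03 in the first range and -0.36, -0.57, -0.81 and -0.03 in the second. All were below 0 in both ranges.

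Calves changed rank from organ to organ for both genes within their own origin. For ENSBTAG00000037799 the IVP calf 3208 was the lowest of its 4 in the pituitary and adrenal and the highest in the testicle. IVP calf 5833 was highest in the hypothalamus and lowest in the testicle, and 5841 was highest in the pituitary and adrenal and lowest in the hypothalamus. Among the MOET calves, 3217 ranked first in the pituitary and adrenal and last in the testicle, 3218 ranked first in the testicle and last in the hypothalamus and pituitary, and 5932 ranked first in the hypothalamus and last in the adrenal. MOET calf 3213, the oldest, held the middle ranks 2 and 3 throughout. No calf of either origin was thus high or low in all its organs. The highest correlation was between the pituitary and adrenal, where deviations from the group means had a Pearson's r of 0.86 over the 8 calves. The deviations had the same sign in only 4 of the 8 calves. In both organs and both origins the spread between calves was within 1.5 times that from counting alone, as described below. In the other 5 pairs of organs r ran from -0.52 to -0.07.

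For ENSBTAG00000052247 IVP calf 3209 had the highest adrenal of all 8 calves and the lowest testicle. IVP calf 5841 was highest of its origin in the pituitary and lowest in the hypothalamus. MOET calf 3217 was first of all 8 in the testicle and at rank 7 in the adrenal, and MOET calf 5932 was first of its origin in the pituitary and adrenal and last in the hypothalamus. MOET calf 3213 again stayed between rank 2 and rank 4 of the 8. The order of the calves thus differed from organ to organ for this gene too, and r of the deviations ran from -0.62 to 0.32 over the 6 pairs of organs.

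Agreement of ranks was measured with Kendall's W, which is 1 when the calves keep the same order in all 4 organs and 0 when their rank sums are equal. For ENSBTAG00000037799 W was 0.100 over the IVP and 0.0750 over the MOET calves, a mean of 0.0875. For ENSBTAG00000052247 it was 0.025 and 0.05, a mean of 0.0375. The mean over all possible orderings is 0.250, so both genes lay below it. One-sided exact permutation tests for agreement, with ranks permuted within origin in each organ, gave p = 0.939 and 0.994 (4 calves per origin, adjusted p = 0.994 for both over the 2 genes). The median W of the 14025 genes was 0.263, and 9.16% of them had an unadjusted exact p under 0.05. W was at least as high as that of ENSBTAG00000037799 in 96.0% of these genes and at least as high as that of ENSBTAG00000052247 in 99.5%. Without the testicle, W of ENSBTAG00000037799 was 0.400 (exact permutation p = 0.336). It was 0.222 without the hypothalamus, 0.0222 without the pituitary and 0.111 without the adrenal. W of ENSBTAG00000052247 was 0.244 without the hypothalamus or without the testicle (exact permutation p = 0.716 for each). It was 0.0444 without the pituitary or without the adrenal. The mean of 0.250 is that of 4 organs and is no reference for values with an organ left out.

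**Figure D3:**
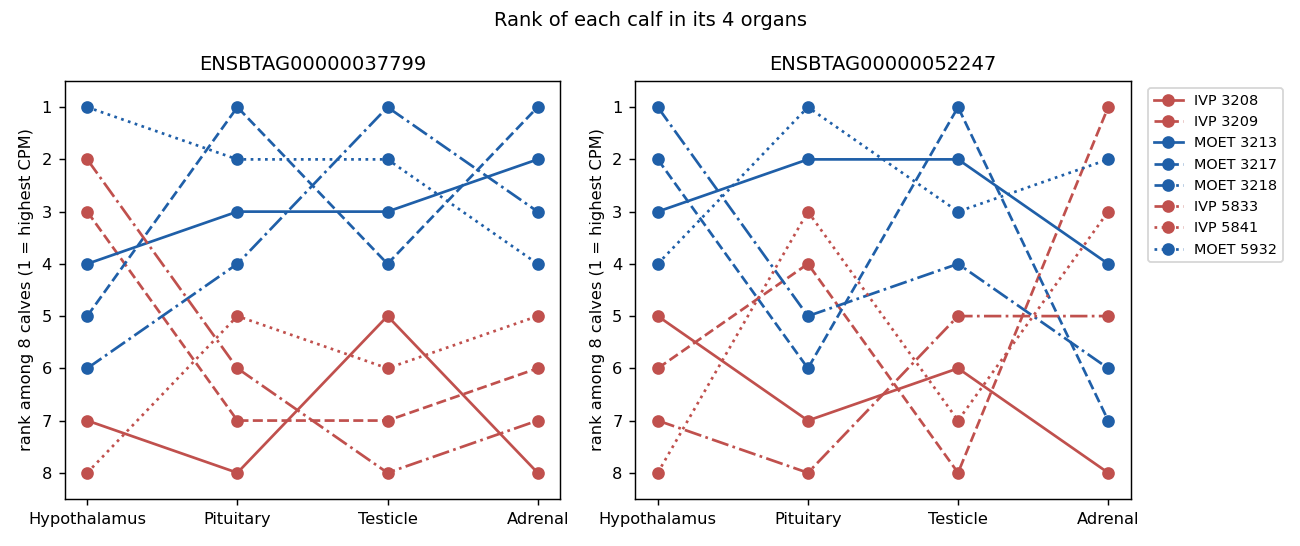
Rank of each of the 8 calves by CPM (1 is the highest) in the 4 organs, 1 panel per gene, with IVP calves in red and MOET calves in blue. For ENSBTAG00000037799 the MOET calves hold ranks 1 to 4 in 3 organs, and the lines cross within each origin.

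**Figure D4:**
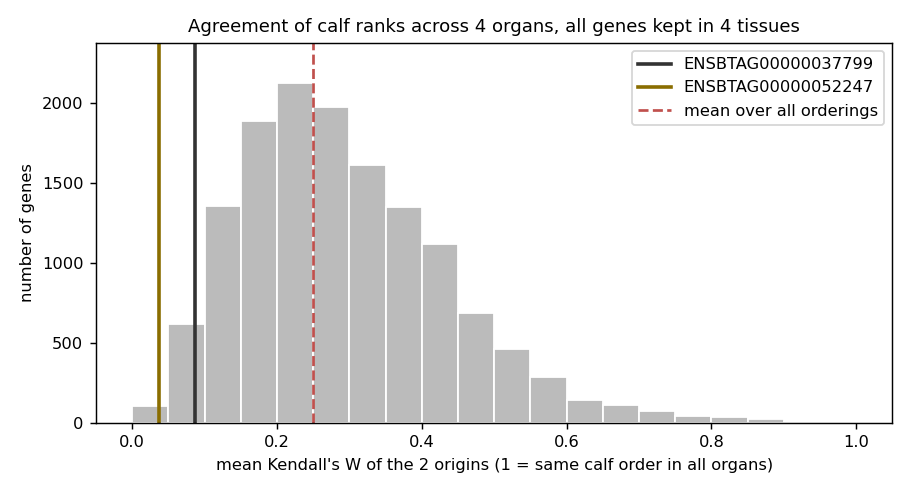
Number of genes by mean Kendall's W over the 2 origins, for the 14025 genes kept in all 4 tissues. Solid lines mark ENSBTAG00000037799 at 0.0875 and ENSBTAG00000052247 at 0.0375, and the dashed line is the mean over all orderings, 0.250; both genes sit in the left tail.

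Depth limits these ranks. Counting error alone gives a coefficient of variation of 5.43% to 15.1% in the 8 groups of ENSBTAG00000037799, and the observed values ran from 5.39% to 28.7%. In 6 of the 8 groups the spread between calves was within 1.5 times counting error, so an order of calves was hardly detectable there at this depth. In MOET adrenals, for example, the spread was 5.39% where counting alone gives 5.43%. For ENSBTAG00000052247 counting error was 0.736% to 10.01% and the observed spread 3.72% to 22.2%, within 1.5 times counting error in 1 of 8 groups. Single neighbours in rank lay within counting error for this gene too, such as the MOET pituitaries 3217 and 3218 at 28.1 and 28.3 CPM, so their order is not resolved.

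The 2 genes had no common course within origins over the 4 organs. Over 32 libraries, deviations from the mean of each tissue and origin had a Pearson's r of -0.22 between them, and 16 of 32 libraries had deviations of the same sign. By organ r was 0.64 in the adrenal, 0.22 in the pituitary, -0.04 in the hypothalamus and -0.68 in the testicle, over 8 libraries each, so the pooled value joins opposite signs. This is a description over libraries that share calves in sets of 4.

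Levels differed between organs for both genes, which is a comparison not used to choose them. Adrenal levels of ENSBTAG00000037799 were above those of the other organs in both origins. On a scale set over all 32 libraries its mean in MOET calves was 16.3 CPM in the adrenal, and 4.68, 4.49 and 3.86 CPM in testicle, pituitary and hypothalamus. In IVP calves the means were 5.92, 2.68, 2.14 and 3.31 CPM. The adrenal was thus 3.47-fold to 4.22-fold above the other organs in MOET calves and 1.79-fold to 2.77-fold above them in IVP calves. Averaged over origins the log2 difference from the adrenal was -1.45 for the hypothalamus, -1.47 for the testicle and -1.66 for the pituitary (SE 0.13 each).

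In edgeR's quasi-likelihood test on all 32 libraries, with Benjamini-Hochberg adjustment over 18242 genes, levels of ENSBTAG00000037799 differed among the tissues (adjusted p = 1.22e-13). So did those of 98.2% of all genes. The fit left out the pairing of libraries from the same calf. With the calf as a replicate block the edgeR adjusted p of ENSBTAG00000037799 was 2.80e-09. The adrenal differed from hypothalamus, testicle and pituitary with edgeR adjusted p of 2.24e-11, 2.84e-11 and 2.14e-12, in contrasts where 77.5%, 76.3% and 80.0% of genes passed. Averaged over origins, the 3 other organs were not told apart. Hypothalamus and testicle differed by 0.02 on the log2 scale (SE 0.13, adjusted p = 0.916, where 82.0% of genes passed), hypothalamus and pituitary by 0.21 (SE 0.13, adjusted p = 0.145), and pituitary and testicle by -0.19 (SE 0.13, adjusted p = 0.178). Without IVP calf 5841 the difference between hypothalamus and pituitary passed (0.37, SE 0.13, edgeR adjusted p = 0.0157). These averages join origins in which the hypothalamus was placed in opposite directions. Its mean was 1.24-fold that of the testicle and 1.55-fold that of the pituitary in IVP calves. In MOET calves it was 0.824-fold and 0.859-fold.

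ENSBTAG00000052247 was highest in the hypothalamus, followed by the pituitary, adrenal and testicle, and each neighbour in this order differed. On the scale over all 32 libraries MOET calves had 960.8, 33.99, 23.5 and 9.09 CPM and IVP calves 679.2, 29.4, 23.4 and 4.36 CPM. The hypothalamus was 28.3-fold above the pituitary and 105.7-fold above the testicle in MOET calves, and 23.1-fold and 155.7-fold above them in IVP calves. Levels differed among tissues with an edgeR adjusted p of 1.19e-28. Over both origins the hypothalamus exceeded the pituitary by 4.68 on the log2 scale (SE 0.11, adjusted p = 1.07e-23 in edgeR, where 77.7% of genes passed). The pituitary exceeded the adrenal by 0.43 (SE 0.10, adjusted p = 1.71e-04), and the testicle lay below the adrenal, with a log2 difference of -1.89 (SE 0.10, adjusted p = 1.69e-15). In these contrasts 80.0% and 76.3% of genes passed.

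ENSBTAG00000052247 thus belonged to 551 genes whose mean was at least 8-fold higher in the hypothalamus than in each other tissue, a list drawn from these same libraries. In the testicle, 275 of the other 550 could be measured, and 227 of them had a lower mean in IVP calves (median log2 difference -0.42). Their mean level was 0.89 to 1.24 log2 CPM in the IVP and 1.30 to 1.72 log2 CPM in the MOET testicles, so the groups of this list did not overlap either. Most genes of the other lists, that of the testicle included, also had a lower mean in IVP testicles. These were 63 of 83 pituitary-enriched genes (median -0.38), 31 of 42 adrenal-enriched genes (median -0.36) and 241 of 396 testicle-enriched genes (median -0.22). The adrenal-enriched list was also without overlap, at 0.99 to 1.31 log2 CPM in IVP and 1.34 to 1.78 log2 CPM in MOET testicles. The pituitary-enriched and testicle-enriched lists overlapped between origins. By share of a testicle's counts, the adrenal-enriched list overlapped and ranged higher in IVP calves (0.0392% to 0.0454%, MOET 0.0339% to 0.0435%). So did the testicle-enriched list (IVP 5.59% to 7.08%, MOET 4.82% to 6.57%). The shares ranged lower in IVP calves for the hypothalamus-enriched list (0.191% to 0.207%, MOET 0.211% to 0.266%) and, with overlap, the pituitary-enriched list (0.0211% to 0.0277%, MOET 0.0255% to 0.0311%). Over all 16352 genes tested there, 46.1% had a lower mean in IVP calves. The calves with the highest testicular level of ENSBTAG00000052247, MOET 3217 and 3213, were also those highest for the list, and IVP 3209 was lowest for both. Relative to the mean of the list in the same library, the log2 difference of the gene in the testicle was -0.59 (SE 0.10) in place of -1.02, with the groups still apart. The part of the list's difference in that of the gene was not tested.

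In the hypothalamus itself, 330 of the 550 genes had a lower mean in IVP calves, with a median log2 difference of -0.14. Over all 16066 genes tested there, 47.7% had a lower mean in IVP calves. The mean level of the list was 4.23 to 4.41 log2 CPM in IVP and 4.29 to 4.44 log2 CPM in MOET calves, which overlap. This mean level, used for the relative measure, differed by -0.04 between origins. Relative to the list, the log2 difference of the gene in the hypothalamus was -0.45 (SE 0.13), with the groups apart. In the pituitary the relative difference was -0.22 (SE 0.08), also without overlap, where the level of the gene itself overlapped. In the adrenal it was -0.05 (SE 0.14), with overlap. This relative measure was added after the values had been seen.

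**Figure D5:**
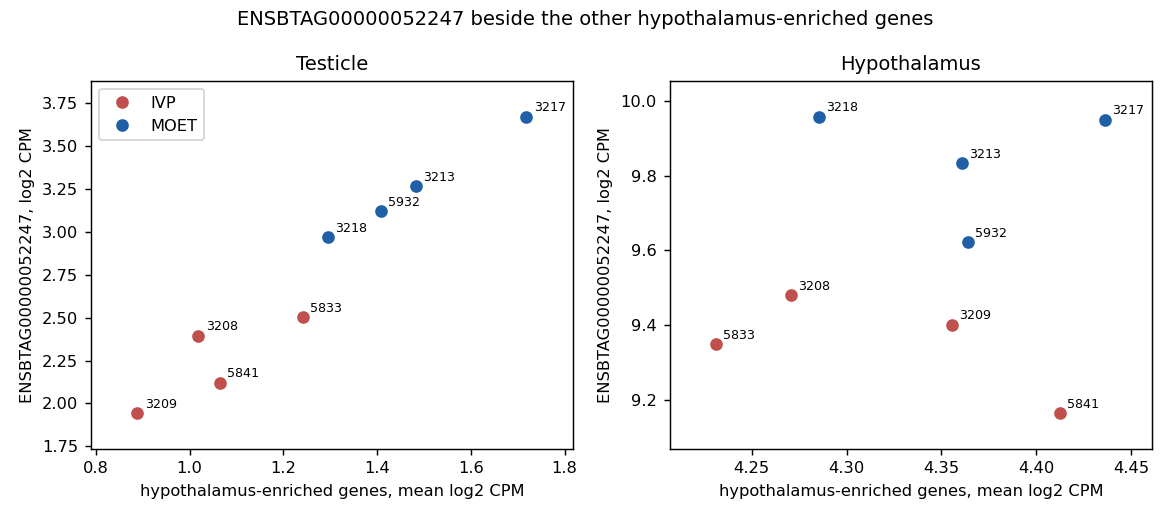
Level of ENSBTAG00000052247 against the mean level of the other hypothalamus-enriched genes, both in log2 CPM, in the testicle and the hypothalamus, with 1 point per calf and origin shown by colour. In the testicle both are lower in the 4 IVP calves, while in the hypothalamus the 2 origins overlap on the horizontal axis (4.23 to 4.41 and 4.29 to 4.44) and are apart on the vertical one.

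The gene whose deviations within groups were most like those of ENSBTAG00000037799 was ENSBTAG00000030845, with a Pearson's r of 0.85 over 32 libraries among 14024 genes compared (median gene -0.02). Within single organs r ran from 0.76 in the testicle to 0.98 in the hypothalamus, over 8 libraries each. Its difference by origin had another shape. Hypothalamic levels were 19.9 ± 9.78 CPM for IVP and 6.90 ± 1.86 CPM for MOET calves (SD, n = 4), and adrenal levels 49.6 ± 7.18 and 58.1 ± 2.77 CPM. It was apart in the direction of lower IVP values in 0 organs. For ENSBTAG00000052247 the likest gene was ENSBTAG00000020737, with r = 0.87 over 32 libraries and from 0.39 in the adrenal to 0.95 in the hypothalamus. Its mean was 114.9 ± 12.5 CPM over IVP and 159.9 ± 23.0 CPM over MOET hypothalami (SD, n = 4), with 2.87 ± 0.532 and 3.50 ± 1.19 CPM in the testicle. Its order by origin was the other way in the pituitary, where its level was low (IVP 1.04 ± 0.277 CPM, MOET 0.722 ± 0.215 CPM), and in the adrenal, with 4.51 ± 0.819 and 3.71 ± 0.498 CPM. ENSBTAG00000020737 was apart in the direction of lower IVP values in 1 organ. As the highest of 14024 values, these correlations describe the libraries and carry no test.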

How the data were processed

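Poly(A)-selected, non-stranded libraries were read in pairs of 100 bases on a DNBSEQ instrument and filtered with SOAPnuke, per the labels' protocols. STAR 2.7, HTSeq and bosTau9 are named per the submitters' processing notes, with annotation release and counting mode not given in the sources used here. As deposited by the authors, the table holds raw counts for 27607 IDs in 32 libraries, with 0 entries that name no gene. As strand was not kept, a gene's reads cannot be told from those of an overlapping antisense gene. No 2 of 48 within-group pairs of libraries were identical (chi-square per degree of freedom 5.21 to 203).

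Genes were kept with filterByExpr (minimum count 10, minimum total 15) and scaled with TMM, within each tissue for levels and over 32 libraries for the tissue comparison, with a prior count of 2 on the log2 scale. Tissue levels were tested with edgeR 4.0.16 (glmQLFit robust, glmQLFTest, R 4.3.3) and calf ranks with Kendall's W and an exact permutation test (Python 3.11.15, scipy 1.17.1). On simulated counts the tissue test, run on 17605 genes, found all 100 genes with a 2-fold change and all 100 with a 4-fold change, and made 6 false calls. Per the labels the 4 organs of a calf carry its animal number, so that number pairs libraries of the same animal. Over all genes, the deviations of a calf's libraries from their group means correlated between organs with means of -0.09 to 0.33. Alternatives were DESeq2 1.42.0, other scalings, no filter, a replicate block by calf, and leaving out each calf or tissue. The genes and lists were chosen with earlier results of these data known. Beside the 2 genes, the rule named for each the gene with the highest Pearson's r of within-group deviations. The markers planned for a check of tissue labels need gene symbols and were not used. P-values of the tissue test measure the spread between the libraries of a group, 1 per calf, and treat the 4 libraries of a calf as independent. Those of the rank test measure agreement of calf order across organs.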

Additional observations from a re-analysis of the deposited data

How the results depend on the processing

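With the calf as a replicate block, levels still differed among tissues (edgeR adjusted p = 2.80e-09 for ENSBTAG00000037799 and 4.35e-22 for ENSBTAG00000052247), and the block changed no call of a tissue pair. With library totals the log2 difference of ENSBTAG00000037799 in the adrenal was -1.64, and that of ENSBTAG00000052247 was -0.33 for hypothalami and -0.20 for adrenals. Genes with all IVP calves below all MOET calves then numbered 386 in hypothalami, 639 in pituitaries, 1178 in testicles, 5151 in adrenals and 3 in all 4 organs. In the calves numbered 5833 to 5932 the difference was -1.27 for ENSBTAG00000037799 in the adrenal and -0.57 for ENSBTAG00000052247 in the pituitary, with 1 MOET calf. Relative to the hypothalamus-enriched genes, ENSBTAG00000052247 differed by -0.59 in the testicle. With 1 calf left out its adrenal difference ran from -0.043 to 0.043, and the difference of ENSBTAG00000037799 between hypothalamus and testicle from -0.11 to 0.11. Without the testicle, W of ENSBTAG00000037799 was 0.400, against 0.0875 with all 4 organs. The mean of 0.250 over all orderings holds for 4 organs only. The cause was not tested. The depth of ENSBTAG00000037799, 37 to 355 counts per library, limits its calf order.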
